A study of Mus musculus with 5 samples.

Results

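The 9 genes described here, Hlf, Meis1, Hoxa9, Hoxb4, Prdm16, Mecom, Gata2, Runx1 and Erg, encode transcription factors of stem cell identity and self-renewal. They were chosen by name, as a list of such factors and not by a rule on measured values, although earlier results of these data were known. They are 9 of 24399 genes with 1 transcript row each. They were followed in LSK cells, a bone marrow fraction without lineage markers but with Sca1 and cKit on its surface, which holds the haematopoietic stem cells and their earliest multipotent progeny. C57BL/6 mice, 12 months old according to the design text, were the source, and they carried a germ line knockout or were wild type. There were 3 mRNA libraries titled KO, whose genotype field gives a heterozygous animal, and 2 titled WT, whose genotype field reads wild type. The design text also names homozygous knockout animals, so title and genotype field leave the number of altered alleles unclear, and the 3 libraries are called KO-labelled.

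Haematopoietic stem cells are held in their undifferentiated state by a small set of factors that act on shared regulatory elements. Meis1 and the Hox proteins bind DNA together with Pbx partners. Gata2, Runx1 and Erg belong to a group of factors that also includes Tal1, Lyl1, Lmo2 and Fli1, whose proteins occupy the same enhancers in stem and progenitor cells and regulate one another. Prdm16 and Mecom are related zinc finger proteins needed to maintain stem cells, and Hlf is a bZIP factor whose expression is strongest in the most immature cells.

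Runx1 has a distal and a proximal promoter, and transcript rows from both are compared below, so both windows are shown, with the window of Hlf, the factor with the smallest p-value, and that of the downstream start of Erg, which held the most motif matches. The windows run from 250 bases before to 50 bases after the start, 5′ to 3′ on the gene's strand, from RefSeq on GRCm38.p6. Capitals mark matches, on either strand, to the GATA motif AGATAA, the RUNX motif TGTGGT, the ETS motif CCGGAA, the MEIS motif TGACAG, the HOX-PBX motif TGATTNAT, the E-box motif CAGCTG or the PAR bZIP motif TTACGTAA.
Runx1 distal, chr16:92826025-92826324, minus strand: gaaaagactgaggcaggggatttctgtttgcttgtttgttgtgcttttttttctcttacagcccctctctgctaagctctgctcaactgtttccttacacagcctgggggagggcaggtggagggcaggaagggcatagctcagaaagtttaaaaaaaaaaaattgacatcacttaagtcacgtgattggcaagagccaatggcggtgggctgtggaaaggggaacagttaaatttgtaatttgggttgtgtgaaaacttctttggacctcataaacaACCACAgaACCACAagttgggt
Runx1 proximal, chr16:92697280-92697579, minus strand: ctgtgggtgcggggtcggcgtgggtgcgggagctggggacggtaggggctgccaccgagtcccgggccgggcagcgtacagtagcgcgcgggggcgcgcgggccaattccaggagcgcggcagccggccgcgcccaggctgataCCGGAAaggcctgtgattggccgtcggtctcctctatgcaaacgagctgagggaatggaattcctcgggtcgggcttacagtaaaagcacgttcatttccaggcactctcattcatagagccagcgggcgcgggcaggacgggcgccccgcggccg
Hlf, chr11:90390868-90391167, minus strand: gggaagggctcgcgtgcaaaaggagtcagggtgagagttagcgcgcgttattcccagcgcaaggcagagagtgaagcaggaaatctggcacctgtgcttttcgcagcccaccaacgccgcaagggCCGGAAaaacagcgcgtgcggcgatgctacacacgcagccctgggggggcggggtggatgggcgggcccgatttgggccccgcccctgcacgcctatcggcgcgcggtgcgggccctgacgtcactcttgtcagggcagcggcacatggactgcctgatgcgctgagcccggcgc
Erg downstream, chr16:95459299-95459598, minus strand: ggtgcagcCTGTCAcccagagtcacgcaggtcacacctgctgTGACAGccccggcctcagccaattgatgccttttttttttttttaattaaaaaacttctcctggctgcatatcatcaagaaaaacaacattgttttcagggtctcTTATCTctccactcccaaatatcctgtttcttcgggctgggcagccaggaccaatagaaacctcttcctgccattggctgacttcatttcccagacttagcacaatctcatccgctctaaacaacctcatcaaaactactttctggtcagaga
The distal Runx1 window held 2 RUNX matches, and the proximal window held 1 ETS match. Across the 14 windows of the 9 genes, RUNX letters occurred in 2 windows (14.3%), against 16.8% of all 32851 windows, and ETS letters in 3 (21.4%), against 14.9%. GATA letters occurred in 1 (7.1%), against 11.2%, MEIS letters in 2 (14.3%), against 19.2%, and the E-box in 1 (7.1%), against 16.3%. The HOX-PBX letters, held by 3.22% of all windows, and the PAR bZIP letters, held by 0.12%, were not in the 14 windows. The GATA and both MEIS matches of Erg lay in 1 window. Such matches describe letters only.

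Some rows of a gene differ by an alternative exon, and these exons are shown because the counts of those rows are compared below. They come from the GENCODE M21 transcript sequences on GRCm38, with the exon in capitals and 15 bases of each neighbouring exon in lower case. Both lengths are multiples of 3.
Runx1 exon of 192 bases, chr16:92644154-92644345, minus strand: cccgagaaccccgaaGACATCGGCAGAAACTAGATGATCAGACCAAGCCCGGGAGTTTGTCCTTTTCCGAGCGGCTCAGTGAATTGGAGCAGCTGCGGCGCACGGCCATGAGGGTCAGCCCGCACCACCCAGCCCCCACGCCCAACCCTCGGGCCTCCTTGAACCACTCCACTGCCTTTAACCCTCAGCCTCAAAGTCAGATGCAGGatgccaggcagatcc
Erg exon of 69 bases, chr16:95369995-95370063, minus strand: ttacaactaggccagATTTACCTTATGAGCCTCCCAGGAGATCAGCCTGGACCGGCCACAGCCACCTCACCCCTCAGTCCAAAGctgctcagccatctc

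All 9 factors were expressed in every library, with 171 to 24665 counts. Library totals, 1 row per gene, ran from 36060320 to 39691066 counts in KO-labelled and from 29964556 to 38674416 counts in WT libraries. Levels are in CPM, the counts normalised to each library's total after TMM scaling. Fold changes are KO-labelled over WT on the log2 scale, with standard error (SE), 95% interval and adjusted p from edgeR's quasi-likelihood test over 14565 genes, 3 KO-labelled against 2 WT libraries. Whether each library is a different mouse is not stated in the labels, and the p-values then cover only the spread of these samples, possibly a technical one. KO library 1 stood somewhat apart, with correlations across genes of 0.9525 to 0.965 to the rest, where other pairs reached 0.963 to 0.98.

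Of the 9 factors, 0 passed the test at an adjusted p under 0.05, against 1.97% of all genes tested (287 genes, 0.79% higher and 1.18% lower in KO-labelled libraries). At an unadjusted p under 0.05 there were 2, Hlf and Runx1, against 13.8% of all genes. DESeq2 called 0 as well (3.95% of all genes), with 2 at an unadjusted p under 0.05, and limma with sample weights 0 (3.89% of all genes), with 4. For DESeq2 and limma the share of all genes at an unadjusted p under 0.05 was not taken. Their counts of 2 and 4 can therefore not be read as an excess. The count was also 0 with RLE size factors or the library total only (1.96% each of all genes), no low count filter (2.67%), rows summed (1.49%), every row tested (1.98%) and the replicate number as a block (1.1%). It was 0 without KO library 1 (4.7%), 2 (1.83%) or 3 (0.942%) and without WT library 1 (0.0399%) or 2 (0.12%). The estimate lay above 0 for 3 factors and below 0 for 6, with a median log2 fold change of -0.03, against 0.001 over all genes. All 9 intervals lay within a 2-fold change in either direction, and 8 of 9 within a 1.5-fold change, the exception being Hoxb4. The library values of the groups did not overlap for 6 factors, 2 higher and 4 lower in KO-labelled libraries, where 32.8% of all genes did not overlap. In bulk RNA, fewer cells of a type and less RNA per cell cannot be told apart.

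**Figure D1:**
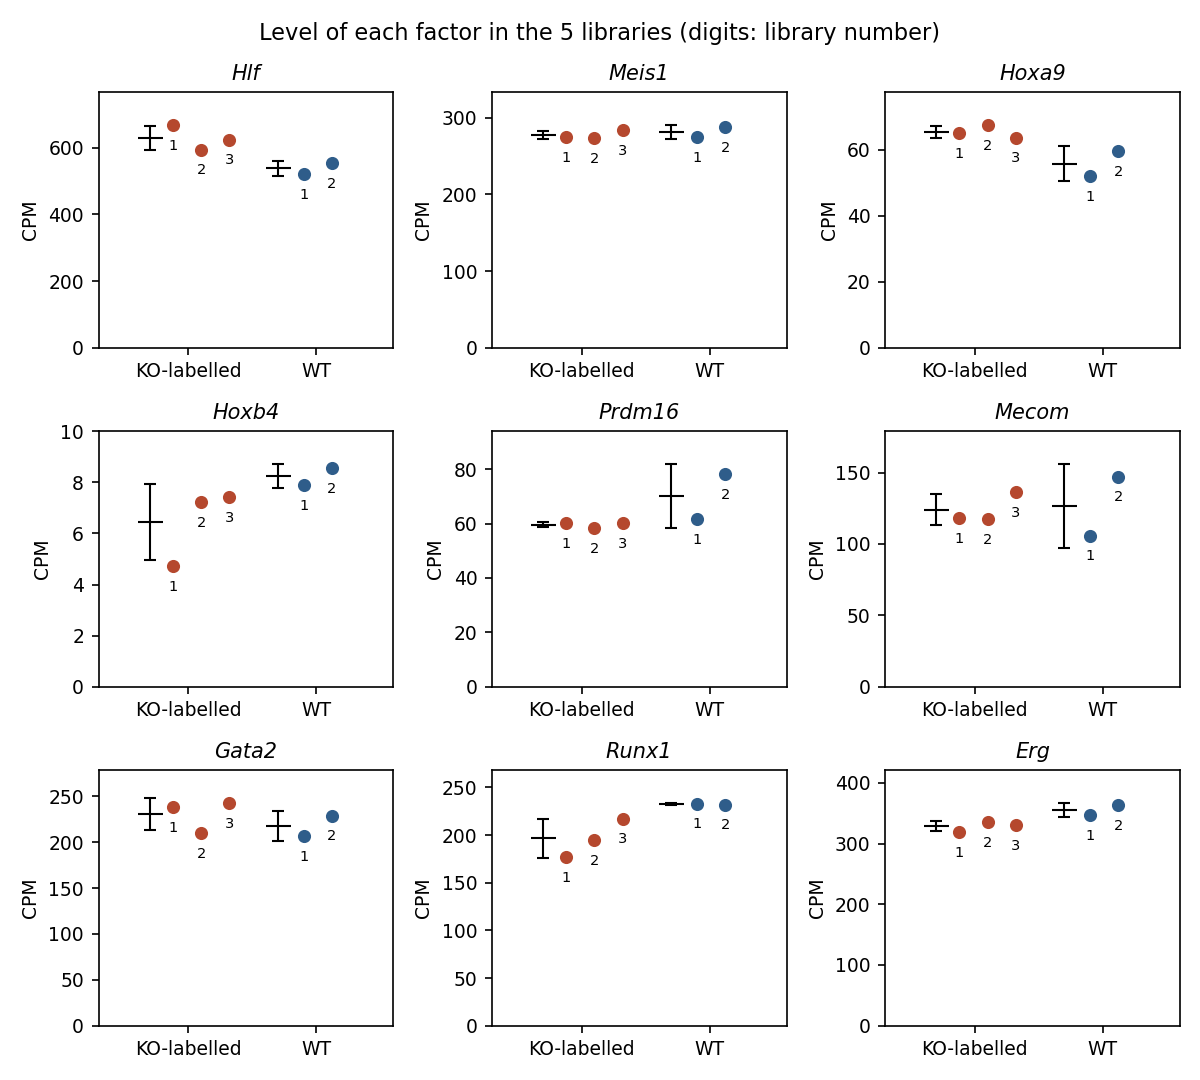
Level of each factor in CPM (vertical axis, from 0) in the 3 KO-labelled (left) and 2 WT libraries (right), with the library number under each point and the mean and SD as a bar at the left of each group. Hlf and Hoxa9 lay higher in all KO-labelled libraries, Hoxb4, Prdm16, Runx1 and Erg lower, and Meis1, Mecom and Gata2 overlapped.

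Per kilobase of the matched transcript model, the mean over the 5 libraries was 169 ± 8.27 CPM per kb for Erg, 105 ± 10.2 for Hlf, 87.3 ± 2.0 for Meis1, 63.1 ± 4.55 for Gata2 and 36.0 ± 4.15 for Runx1 (SD, n = 5). It was 28.5 ± 3.79 CPM per kb for Mecom, 19.1 ± 1.87 for Hoxa9, 7.42 ± 0.956 for Prdm16 and 2.79 ± 0.568 for Hoxb4 (SD, n = 5). Neighbours in this order did not share values in any library, except Runx1 and Mecom, whose ranges overlapped. The place of Erg and Runx1 depends on the model: with the longest and shortest models, Erg had 104 and 223, and Runx1 36.0 and 106 CPM per kb. The order of Erg, Hlf and Runx1, and the place of Runx1 against Meis1 and Gata2, are therefore not settled by these values.

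Hlf stood at 667, 595 and 624.5 CPM in KO libraries 1 to 3, against 522 and 554 CPM in WT libraries 1 and 2. Every KO-labelled library was higher than both WT libraries, KO library 1 most. The mean was 629 ± 36.5 CPM in KO-labelled libraries and 538 ± 22.1 CPM in WT libraries (SD, n = 3 and 2), a log2 fold change of 0.23 ± 0.08 (SE), or 16.9% above WT with an interval of 3.69% to 31.8%. The adjusted p was 0.216, and Hlf ranked at place 998 by p among all genes tested. The genes whose library profile was most like that of Hlf, among 9787 genes at 10 CPM or more, were Usp39, Pigh and Gnl2, with root mean square differences of 0.007, 0.014 and 0.017 on the centred log2 scale over 5 libraries. Usp39, a splicing factor, stood at 128, 113 and 120.0 CPM in KO-labelled, against 101 and 106 CPM in WT libraries. Of the relatives of Hlf in the PAR bZIP family, Dbp had a log2 fold change of 0.44 ± 0.23 (SE) and Tef of 0.10 ± 0.12, and neither passed (adjusted p = 0.438 and 0.772).

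Meis1, the TALE homeobox partner of Hox proteins, stood at 275, 273 and 284 CPM in KO libraries 1 to 3, against 274 and 288 CPM in WT libraries 1 and 2. These values overlapped and had the smallest difference of the 9 factors, a log2 fold change of -0.02 ± 0.08 (SE; adjusted p = 0.952) with an interval of -12.1% to 11%. Its model shares 59 bases with another gene on the same strand. Hoxa9, which drives progenitor expansion, stood at 65.1, 67.3 and 63.6 CPM in KO-labelled libraries, against 52.0 and 59.5 CPM in WT libraries. Every KO-labelled value was higher, by a log2 fold change of 0.23 ± 0.11 (SE; adjusted p = 0.37), with an interval of -0.25% to 37.7%. Hoxb4, which expands stem cells when overexpressed, was the least abundant, at 4.73, 7.22 and 7.42 CPM in KO-labelled libraries, against 7.90 and 8.57 CPM in WT libraries. KO library 1 was lowest, with 171 counts, and the other KO-labelled values lay just under WT library 1. The log2 fold change of Hoxb4 was -0.35 ± 0.27 (SE; adjusted p = 0.63), with the widest interval of the 9, -47.8% to 17.7%. Without KO library 1 it was -0.17.

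Of 20 Hox and TALE relatives whose tests are given, 0 passed, with 2 at an unadjusted p under 0.05, and the median log2 fold change was -0.06. DESeq2 and limma with sample weights also called 0 of them. The most abundant of them were Pbx2, at 89.2, 96.2 and 92.5 CPM in KO-labelled against 76.2 and 96.0 CPM in WT libraries, and Pknox1, at 91.4, 89.6 and 90.4 against 73.3 and 76.8 CPM. Neither passed (log2 fold change 0.11 ± 0.11 and 0.27 ± 0.09, adjusted p = 0.746 and 0.202). Hoxa10 stood at 31.4, 23.9 and 22.2 CPM in KO-labelled libraries, against 22.2 and 31.6 CPM in WT libraries, with a log2 fold change of -0.06 ± 0.19 (SE; adjusted p = 0.929). The estimate farthest from 0 among these relatives was that of Hoxb8, which stood at 3.77, 2.28 and 3.77 CPM in KO-labelled libraries, against 8.11 and 5.81 CPM in WT libraries (log2 fold change -1.09 ± 0.33, adjusted p = 0.144). Hoxb8 was named after its values were seen. Hoxa11, Hoxa13, Hoxb13 and Pknox2 had 0 counts in all libraries, and Hoxb1 was too low to be tested.

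Prdm16, a PR domain zinc finger protein, stood at 60.1, 58.5 and 60.2 CPM in KO libraries 1 to 3, against 61.7 and 78.3 CPM in WT libraries 1 and 2. The KO-labelled values were closely spaced and lay just under WT library 1, while WT library 2 stood apart. The log2 fold change was -0.23 ± 0.12 (SE; adjusted p = 0.406), with an interval of -28.6% to 1.27%; it was -0.39 without WT library 1 and -0.05 without WT library 2. Mecom, the related Evi1 locus, stood at 118, 117 and 136 CPM in KO-labelled libraries, against 106 and 147 CPM in WT libraries. The WT libraries enclosed all KO-labelled values. The log2 fold change was -0.03 ± 0.13 (SE; adjusted p = 0.95), with an interval of -19.6% to 19.1%, and turned to 0.23 without WT library 2, to 0.002 and 0.005 without KO library 1 or 2, and to 0.006 with limma and sample weights. Both genes overlap an antisense gene in the annotation, Prdm16 over 109 and Mecom over 81 bases of the model, and strand use in the counting is not given. A second row of Mecom had 133, 220 and 199 counts in KO-labelled libraries, against 131 and 262 counts in WT libraries. This was 3.12%, 4.8% and 3.69% of the main row in KO-labelled, against 4.13% and 4.55% in WT libraries, and the groups overlapped.

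Gata2, a zinc finger factor required for stem cell survival, stood at 238, 210.3 and 242.5 CPM in KO libraries 1 to 3, against 206 and 229 CPM in WT libraries 1 and 2. The groups overlapped, with a log2 fold change of 0.08 ± 0.09 (SE; adjusted p = 0.769) and an interval of -7.88% to 21.4%. Runx1, needed for stem cells to emerge in the embryo and for balanced lineage output in the adult, stood at 177, 195 and 217 CPM in KO-labelled libraries, against 233 and 232 CPM in WT libraries. The WT values were nearly equal, and every KO-labelled library was lower, KO library 1 most. The mean was 196.5 ± 20.1 CPM in KO-labelled libraries and 233 ± 0.798 CPM in WT libraries (SD, n = 3 and 2), a log2 fold change of -0.24 ± 0.09 (SE). This was an estimate 15.5% under WT (interval -26.6% to -2.65%) that did not pass (adjusted p = 0.268). Without KO library 1 it was -0.17. The Runx1 model overlaps an antisense gene over 106 bases.

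Erg, an ETS factor that maintains adult stem cells, stood at 319.5, 336 and 330.5 CPM in KO libraries 1 to 3, against 347 and 363 CPM in WT libraries 1 and 2. The KO-labelled values were lower in every library but close to WT, with a log2 fold change of -0.11 ± 0.08 (SE; adjusted p = 0.583) and an interval of -17.5% to 3.96%. Of the 9 factors, KO library 1 held the lowest value of the 5 libraries for 3 (Hoxb4, Runx1 and Erg) and the highest for Hlf, while WT library 2 held the highest for 5 and WT library 1 the lowest for 4.

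**Figure D2:**
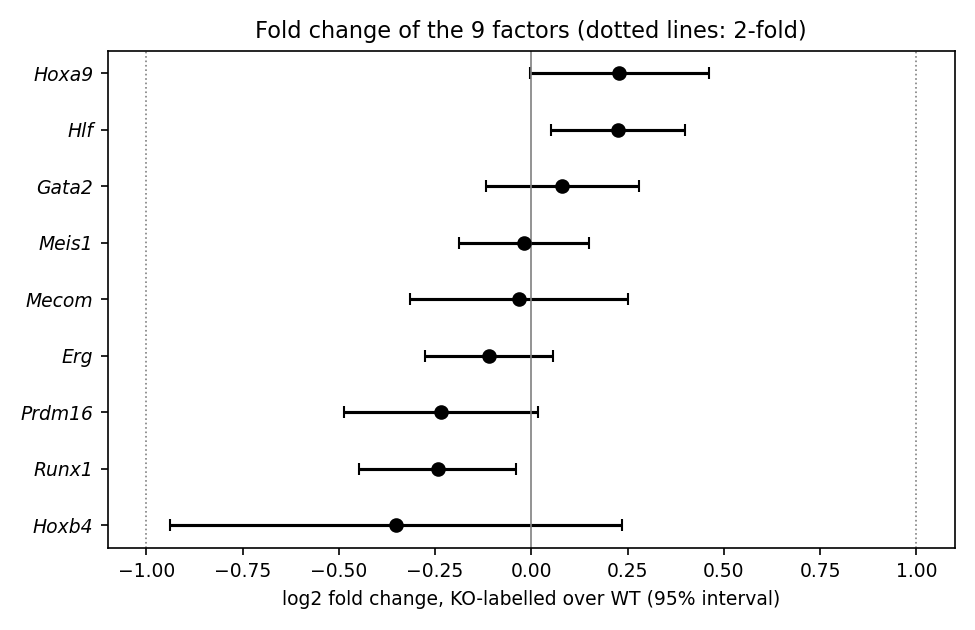
Log2 fold change of each factor, KO-labelled over WT (horizontal axis), with the 95% interval as a bar and dotted lines at a 2-fold change. The estimates run from -0.35 for Hoxb4 to 0.23 for Hoxa9, and all intervals stay between the dotted lines.

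**Figure D3:**
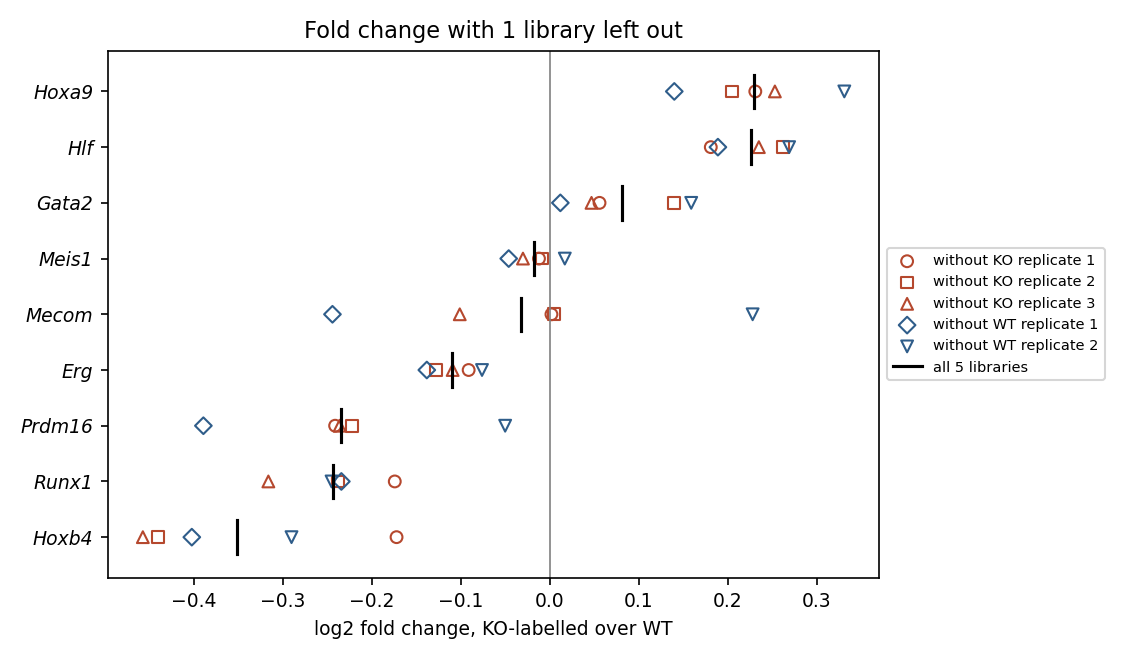
Log2 fold change of each factor (horizontal axis) with all 5 libraries (black bar) and with each library left out (symbols). Hlf and Hoxa9 stay above 0 and Erg, Runx1, Prdm16 and Hoxb4 below 0 in all of them, while Mecom runs from -0.24 to 0.23.

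Of 13 partners and cofactors of Gata2, Runx1 and Erg, 1 rose and 0 fell, with a median log2 fold change of 0.04. The gene that rose was Gfi1b, a transcriptional repressor of red cell and platelet development that also restrains stem cell expansion. Gfi1b stood at 89.3, 88.5 and 106 CPM in KO-labelled libraries, against 49.5 and 61.3 CPM in WT libraries, a log2 fold change of 0.77 ± 0.12 (SE; adjusted p = 0.00657). All KO-labelled libraries were higher, and the log2 fold change ran from 0.629 to 0.935 with 1 library left out. The call was lost with either WT library left out, as were most calls over all genes. Of the erythroid markers, 5 of 11 rose and 0 fell (Klf1, Car1, Car2, Ermap and Slc4a1). The summed level of the 11 was 1167 to 1543 CPM in KO-labelled, against 853 to 982 CPM in WT libraries. Car2 alone held 825 to 1105 CPM of this sum in KO-labelled, against 606 to 724 CPM in WT libraries. The erythroid count was 3 with the replicate block, 0 without WT library 1 and 1 (Ermap) without WT library 2, and Slc4a1, at an adjusted p of 0.0499 in edgeR's quasi-likelihood test, passed in 4 of 13 alternatives. Their part in the Gfi1b result was not tested.

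The most abundant other partners were Lmo2, a bridging protein of the GATA complexes, and Etv6, an ETS repressor. Lmo2 stood at 898, 771 and 829 CPM in KO-labelled, against 791 and 819 CPM in WT libraries (log2 fold change 0.05 ± 0.08, SE, adjusted p = 0.862). Etv6 stood at 811, 875 and 824 CPM in KO-labelled libraries, against 978 and 964 CPM in WT libraries, lower in each, with a log2 fold change of -0.21 ± 0.07 (SE) that did not pass (adjusted p = 0.195). The remaining members of that group had log2 fold changes of 0.11 ± 0.10 (Tal1), 0.04 ± 0.11 (Lyl1) and -0.09 ± 0.11 (Fli1), and the DNA-binding partner of Runx1, Cbfb, 0.14 ± 0.08 (SE). None of these passed (adjusted p = 0.682, 0.929, 0.806 and 0.499).

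Of 16 family relatives and corepressors, 0 passed, with 2 at an unadjusted p under 0.05, and the median log2 fold change was 0.08. The most abundant were the corepressor Ctbp1, which binds Prdm16 and Mecom, and the histone methyltransferases Ehmt2 and Suv39h1. Ctbp1 averaged 265 ± 22.8 CPM in KO-labelled libraries and 267 ± 14.7 CPM in WT libraries (SD, n = 3 and 2), Ehmt2 200.3 ± 17.8 and 199 ± 22.8 CPM, and Suv39h1 164 ± 11.2 and 153 ± 9.06 CPM. Of 23 tested other self-renewal regulators, 0 passed, with 3 at an unadjusted p under 0.05, and the median was 0.03. DESeq2 called 1 of them, Ikzf2, and limma with sample weights 2, Egr1 and Ikzf2. Without KO library 1, 4 passed, with Kmt2a and Men1 beside those. Without KO library 2, 2 passed, Ikzf2 and Satb1.

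Ikzf2, a zinc finger factor of the Ikaros family, stood at 43.2, 59.8 and 54.5 CPM in KO-labelled libraries, against 73.5 and 73.6 CPM in WT libraries. Each KO-labelled value was lower, with a log2 fold change of -0.49 ± 0.13 (SE; adjusted p = 0.0916). Ikzf2 was named after its values were seen. Of the most abundant regulators, Myb averaged 820.3 ± 51.9 CPM in KO-labelled libraries and 735 ± 19.2 CPM in WT libraries (SD, n = 3 and 2; adjusted p = 0.406), Kmt2a 484 ± 109 and 418 ± 36.9 CPM (adjusted p = 0.642) and Msi2 434 ± 27.9 and 451 ± 4.07 CPM (adjusted p = 0.835). Kmt2a, the methyltransferase that maintains Hox gene expression, stood at 369 CPM in KO library 1 and at 587 and 496 CPM in KO libraries 2 and 3, against 392 and 444 CPM in WT libraries.

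Of 21 known target genes of the 9 factors, 0 rose and 1 fell, with a median log2 fold change of -0.12. The gene that fell was Itga2b, the platelet integrin CD41 that Runx1 regulates. It stood at 152, 125 and 162 CPM in KO-labelled libraries, against 229 and 229 CPM in WT libraries, all lower. The log2 fold change of Itga2b was -0.65 ± 0.10 (SE; adjusted p = 0.00657), and ran from -0.723 to -0.551 with 1 library left out. The call was lost with either WT library left out, as were most calls over all genes. At an unadjusted p under 0.05 there were 8 of 21 (38.1% of the list, against 13.8% of all genes). The list was chosen with earlier results of these data known, so this share is a description and not a test. Among the 8, Mpo and Csf1r are also granulocyte and monocyte markers, and Itga2b and Pf4 also megakaryocyte markers. Mpo, the myeloperoxidase of granulocyte precursors and a Runx1 target, stood at 2219, 2386 and 2869 CPM in KO-labelled, against 3443 and 3103 CPM in WT libraries (log2 fold change -0.39 ± 0.10, SE, adjusted p = 0.0747). Cd34 averaged 1266 ± 108 CPM in KO-labelled libraries and 1304 ± 106 CPM in WT libraries (SD, n = 3 and 2; adjusted p = 0.891). DESeq2 and limma with sample weights called 4 targets each, Csf1r, Itga2b, Mpo and Pim1, all lower, and the same 4 passed without KO library 1. Leaving out KO library 2 gave 3 (Csf1r, Itga2b and, higher, Pf4), KO library 3 gave 2 (Itga2b and Mpo) and the replicate block 3 (Itga2b, Mpo and Pim1). The summed level of 13 granulocyte and monocyte markers was 3309 to 4080 CPM in KO-labelled, against 4728 to 5093 CPM in WT libraries. Mpo, itself not called, held 2219 to 2869 CPM of this sum in KO-labelled, against 3103 to 3443 CPM in WT libraries. Of the 13, 5 fell (Prtn3, Ctsg, Csf3r, S100a8 and S100a9) and Ly6c2 rose. All of these calls were lost with either WT library left out, as were most calls over all genes. Without KO library 3, only those of Prtn3 and Ctsg held. The calls of Ly6c2 and Csf3r were also lost with the replicate block and with rows summed, and that of Csf3r without KO library 2. Of 8 tested megakaryocyte markers, 3 fell (Itga2b, Gp1ba and Selp), with a summed level of 635 to 830.4 CPM against 903 to 1017 CPM and with Gp6 at 0 counts. These calls too were lost with either WT library left out, as were most calls over all genes. The part of these 2 marker lists in the target results was not tested.

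**Figure D4:**
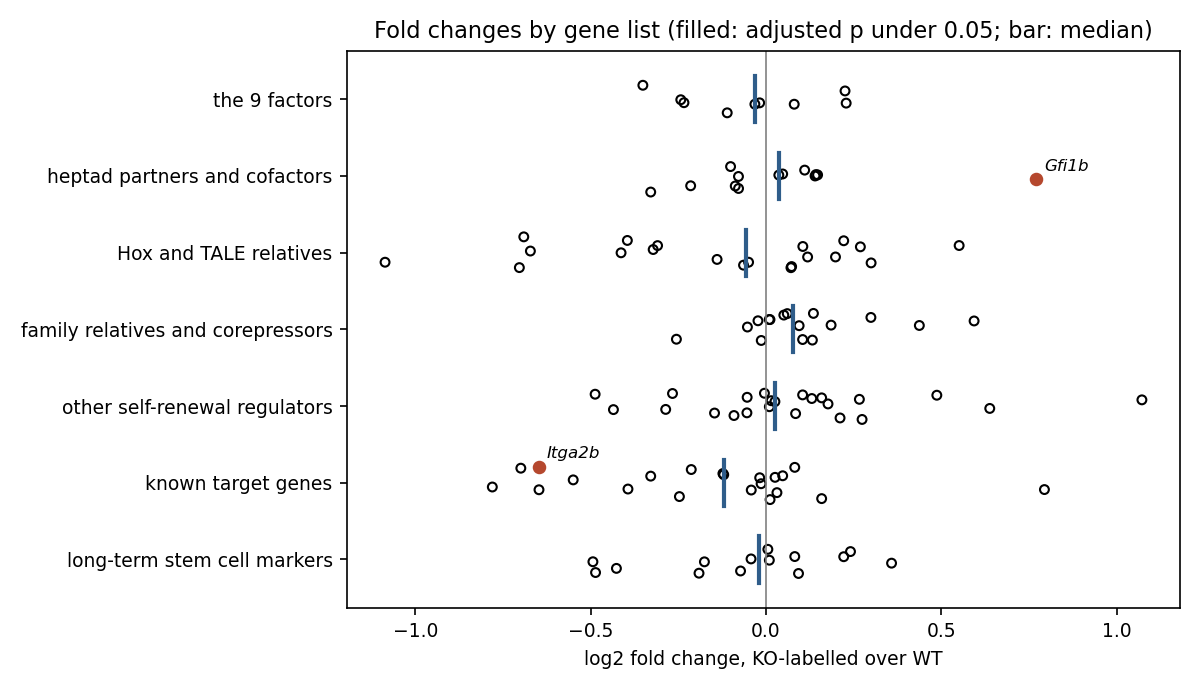
Log2 fold change, KO-labelled over WT (horizontal axis), of tested genes among the 9 factors, the 5 lists described above and the long-term stem cell markers, with filled points at an adjusted p under 0.05 and a bar at each median. The filled points are Gfi1b and Itga2b.

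Markers of the sorted fraction were present in every library. Kit stood at 1126, 1086 and 1144 CPM in KO-labelled libraries, against 1205 and 1227 CPM in WT libraries, and Ly6a, which encodes Sca1, at 97.2, 90.5 and 104.5 against 74.9 and 82.0 CPM. Neither passed (adjusted p = 0.499 and 0.175). Of 14 markers of long-term stem cells, 0 passed edgeR's test, and estimates lay above 0 for 7 and below 0 for 7. At an unadjusted p under 0.05 there were 2 (14.3%, against 13.8% of all genes). These were Slamf1 and Cdkn1c, both lower (log2 fold change -0.43 and -0.49). DESeq2 called 0, limma with sample weights 1 (Vwf, lower) and edgeR without KO library 1 also 1 (Esam, lower). The summed level of the 14 was 4057 to 4541 CPM in KO-labelled, against 4175 to 4675 CPM in WT libraries. Adgrg1 alone held 2923 to 3093 CPM of this sum in KO-labelled, against 2958 to 3274 CPM in WT libraries. Of 8 multipotent progenitor markers, Ccr9 rose and no other passed (2573 to 3419 against 2886 to 3174 CPM); this call was lost with the replicate block and whenever KO library 2 or 3 or a WT library was left out. Of 9 endothelial and stromal markers, Pecam1 and Pdgfrb fell, while Cdh5 stayed at or under 1.59 CPM in every library. Neither call held with the replicate block, which sets KO library 3 aside, nor when KO library 3 or a WT library was left out. Of the 9 estimates, 4 lay above 0 and 5 below 0. The summed level was 263 to 299 CPM in KO-labelled, against 377 to 381 CPM in WT libraries. This sum includes Pecam1 and Pdgfrb, so it does not describe the rest of the list. B cell markers summed to 51.0 to 58.2 CPM in KO-labelled, against 44.5 to 56.3 CPM in WT libraries, and T and NK cell markers to 102 to 116 against 108 to 115 CPM, with 0 of 7 and 0 of 8 past the test.

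The rows of most factors carried nearly the same reads. The lowest row held 95.4% to 99.8% of the counts of the highest for Erg, Runx1, Meis1, Hoxa9 and Prdm16, while Hlf, Hoxb4 and Gata2 had 1 row each. Differences between rows therefore come from reads counted for the row with an exon and not for the row without it. They are net values, since the ends of the counted rows are not known here. Reads that touch both the alternative exon and a shared exon may count for both rows. A difference therefore does not give the use of the exon. For the Runx1 exon of 192 bases shown above, the proximal-start rows with and without it differed by 26, 71 and 92 reads in KO-labelled libraries, against 77 and 156 reads in WT libraries. Scaled to depth this was 0.72, 1.82 and 2.33 CPM in KO-labelled libraries, against 2.57 and 3.99 CPM in WT libraries, and the groups did not overlap.

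As a share of the row that has the exon it was 0.418%, 0.961% and 1.11% in KO-labelled libraries, against 1.1% and 1.76% in WT libraries, a mean of 0.828% ± 0.362 against 1.43% ± 0.467 (SD, n = 3 and 2). KO library 1 was lowest, with an exact binomial 95% interval of 0.273% to 0.612%, and WT library 2 highest, with 1.5% to 2.06%. KO library 3 lay just above WT library 1, so that the shares overlapped (exact permutation p = 0.4, two-sided, where 3 against 2 libraries can reach 0.2 at the least). The pair of distal-start rows differed by the same number of reads in each of the 5 libraries, although the annotation models matched to both of those rows hold the exon. Over the distal row the share was 0.406%, 0.933% and 1.07% in KO-labelled libraries, against 1.1% and 1.72% in WT libraries, which did not overlap (exact permutation p = 0.2). The intervals cover counting error only.

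The Erg exon of 69 bases separated its rows by 180, 234 and 232 reads in KO-labelled libraries, against 229 and 209 reads in WT libraries, the same in both pairs of rows that differ by it. The share was 1.56%, 1.79% and 1.78% in KO-labelled, against 2.21% and 1.47% in WT libraries, which overlapped (exact permutation p = 0.8). For Meis1, whose rows differ by an exon of 95 bases, the share was 2.17%, 2.73% and 2.83% in KO-labelled, against 2.71% and 3.27% in WT libraries (exact permutation p = 0.6). For Prdm16, whose rows differ by an exon of 175 bases, the difference was 5, 6 and 7 reads in KO-labelled, against 0 and 10 reads in WT libraries, too few to compare.

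**Figure D5:**
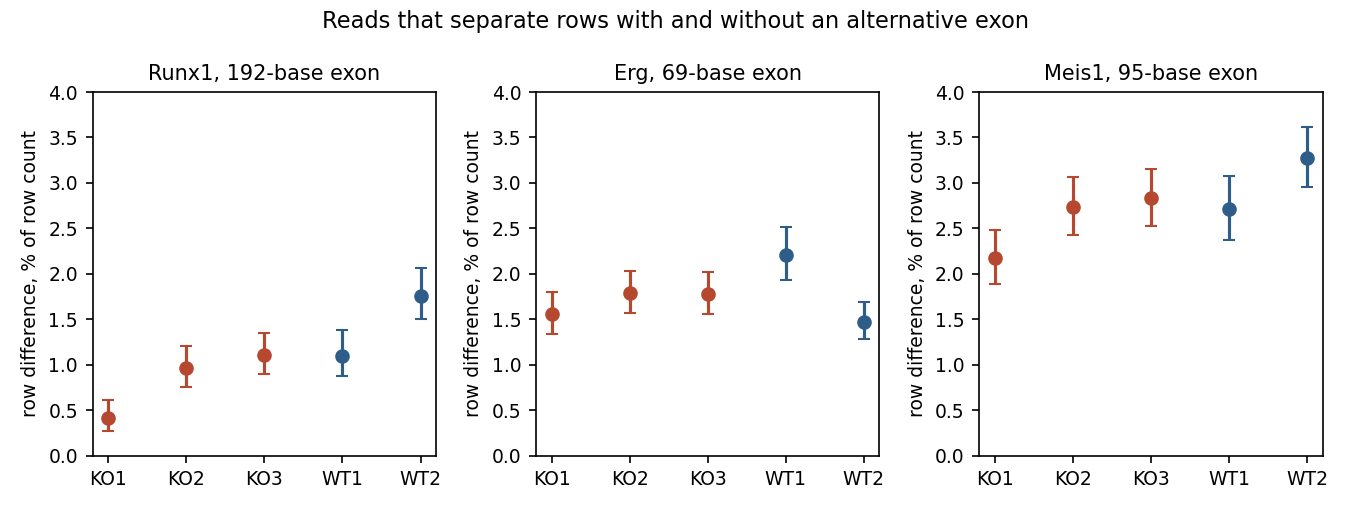
Row difference for an alternative exon as a percentage of the count of the row that has it (vertical axis) in each library, with exact binomial 95% intervals, for Runx1, Erg and Meis1. For Runx1 the share is lowest in KO library 1 (0.418%) and highest in WT library 2 (1.76%), and in all 3 genes the groups overlap.

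The distal-start rows of Runx1 exceeded the proximal-start rows by 190, 222 and 269 reads in KO-labelled libraries, against 3 and 218 reads in WT libraries. This equalled 5.26, 5.68 and 6.81 CPM in KO-labelled, against 0.1 and 5.58 CPM in WT libraries. WT library 1 stood apart, with nearly no excess, and WT library 2 lay among the KO-labelled libraries (exact permutation p = 0.4). Beside their first exons, the matched models also differ in where they end, and the ends of the counted rows are not known here. The difference is therefore a net value, which does not give the use of either promoter alone.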

How the data were processed

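Per the labels' protocols, mRNA of sorted LSK cells was made into stranded libraries. The deposited table holds raw counts of reads for 33862 RefSeq transcript rows in 3 KO-labelled and 2 WT libraries, grouped by title. The tools named in the submitters' processing notes are featureCounts, Subread 1.4.5-p1 and STAR, with the build mm9 (NCBIM37), and settings, strand use and shared reads are not described there. Rows were named from the RefSeq table of GRCm38 (33485) or GENCODE (188), and 189 stayed unnamed and were kept as genes of their own; unnamed rows held 0.362% to 0.459% of counts. The row with the most counts was kept per gene.

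Low genes were removed by filterByExpr, TMM gave the scaling, and edgeR 4.0.16 (R 4.3.3) gave two-sided quasi-likelihood tests, with Benjamini-Hochberg adjustment over 14565 genes and a threshold of 0.05. The fit was tested on simulated data. Intervals are 95% intervals from the same fit. Model lengths and exons came from GENCODE M21 transcripts matched to RefSeq rows, and exact tests from scipy 1.17.1. Alternatives were DESeq2 1.42.0, limma 3.58.1, other scalings, filters and row choices, the replicate number as a block, and leaving out single libraries. Named by rule were the 9 factors, called genes of each list, the most abundant until 3 were named, and the genes most like Hlf. Hoxb8 and Ikzf2 are marked as named after their values were seen. Further genes, such as Dbp, Tef, Tal1, Lyl1, Fli1, Cbfb and Cdh5, were named outside this rule and are not marked. The factors and lists were chosen with earlier results of these data known. At these depths 3 counts equal 0.076 to 0.1 CPM. Some genes, the targeted one and members of the lists included, are not reported here, and list counts leave them out.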

Additional observations from a re-analysis of the deposited data

How the results depend on the processing

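The count of factors past the threshold was 0 under all 13 alternatives, and of 117 values for the 9 factors, 112 kept their direction. With 1 library left out, Meis1 ran from -0.046 to 0.017 and Mecom from -0.244 to 0.228, and Mecom was 0.006 with limma and sample weights. Among the other named genes, Lmo2 ran from -0.01 to 0.098, Pbx2 from -0.045 to 0.283, Hoxa10 from -0.291 to 0.218, Ctbp1 from -0.063 to 0.055, Ehmt2 from -0.095 to 0.135 and Cd34 from -0.122 to 0.049. Hoxa10 was 0.043 with the replicate block, Ctbp1 was 0.03 with limma and sample weights, and Ehmt2 -0.004 with the library total only and -0.024 with the replicate block.

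With 1 library left out, the calls ran from 0 to 1 among Gata2, Runx1 and Erg partners, and from 0 to 4 among other self-renewal regulators and among known targets. Calls among the Hox and TALE relatives reported were 0 throughout. Self-renewal calls were 1 with no low count filter, 1 with DESeq2 and 2 with limma, and target calls 3 with no low count filter, 4 with DESeq2 and 4 with limma. Blocking on the replicate number gave 3 target calls, 1 among Gata2, Runx1 and Erg partners and 0 in the other regulator lists, as without it. Among marker lists it gave 3 erythroid, 2 megakaryocyte, 0 multipotent progenitor, 0 endothelial and stromal, and 7 granulocyte and monocyte calls, the last all lower. With 1 library left out, marker calls ran from 0 to 6 (erythroid), 0 to 3 (megakaryocyte) and 0 to 9 (granulocyte and monocyte). WT has no library 3, so in the block fit KO library 3 does not enter the comparison of groups. That fit is therefore close to leaving out KO library 3 and is no separate check. For Runx1 the log2 fold change was -0.323 with the block and -0.316 without KO library 3. Deviations of same-numbered libraries from their group means correlated at 0.043 and 0.017. The deviations of 2 WT libraries mirror each other, so these values cannot decide whether the numbers pair the libraries. A library left out of WT leaves a single WT sample, whose spread is then taken to be that of the others. Few of all genes passed in those fits, so a call lost there says little about the gene itself. Causes were not tested. With 2 WT libraries, small differences such as that of Hlf were not resolved after adjustment.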
